A study of Mus musculus with 4 samples.

Results

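The fibroblast growth factor (FGF) genes described here were chosen by name from the deposited gene table. They are the genes for the FGF ligands, the receptors Fgfr1 to Fgfr4 and the receptor-like Fgfrl1, the Sprouty (Spry) and Spred inhibitors, and the ETS transcription factors Etv1, Etv4 and Etv5. In all, 36 of 54152 gene symbols fit these names, namely 22 Fgf genes, 5 receptor or receptor-like genes, 6 inhibitor genes and 3 ETS factor genes. The RNA came from whole uteri of pregnant C57 mice at day 4, with 2 libraries carrying the genotype label P38α ff and 2 the label P38α dd. The series title contrasts wild-type with p38α knockout uteri, p38α being a stress-activated protein kinase encoded by Mapk14. No driver of the deletion, deleted exon, animal age or pooling of uteri is stated in the labels.

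FGFs are secreted proteins that bind receptor tyrosine kinases together with heparan sulfate, and the active receptors signal through RAS and ERK. ERK activity induces the genes for Sprouty proteins, which like the related Spred proteins dampen the same cascade, and for the ETS factors Etv4 and Etv5, so Sprouty and Etv genes are often read as outputs of FGF signalling. In the mouse uterus, FGFs made in stroma are known to signal to the epithelium, and the stromal factor Hand2, which progesterone induces, is known to repress several of them.

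The 4 libraries held between 24619850 and 32451670 counts. The count of Mapk14 did not drop with the dd label, being 3074 and 2710 in ff and 2481 and 3429 in dd. In CPM (counts relative to library size, scaled by TMM) it was 92.3 and 87.0 in ff and 105.0 and 113.2 in dd. Both dd libraries were thus above both ff libraries. The log2 change of 0.28 (95% interval 0.05 to 0.52) missed the threshold of edgeR's quasi-likelihood test (adjusted p = 0.12). All directions given here thus depend on the labels ff and dd, which whole-gene counts of Mapk14 do not bear out, although a deletion of few exons need not lower such counts. Separate animals are not stated for the replicates, and p-values thus cover the spread between these samples alone. All 14 stromal markers, among them the uterine Hox genes Hoxa10 and Hoxa11, stood at 79.1 CPM or more in each library. Summed epithelial markers were at 1438 and 1668 CPM in ff and 3196 and 3623 CPM in dd, with 6 of 14 called higher and none at 0. Summed stromal markers were at 17346 and 15339 CPM in ff and 11868 and 8486 CPM in dd, with 6 of 14 called lower. Summed endothelial markers were at 1640 and 1415 CPM in ff and 752.3 and 776.5 CPM in dd, with 9 of 10 called lower. Macrophage markers were called lower for 6 of 10, with 1 above 0 in log2 change. Markers of plasma cells (3 of 8), red cells (4 of 5 tested) and oviduct (2 of 6) were called higher. These lists did not move as a whole, since 3 plasma cell, 1 red cell (log2 −2.62) and 2 oviduct markers were below 0. Smooth muscle markers had a median log2 change of 0.23. The red cell gene Slc4a1 had 0 counts in ff replicate 2 and dd replicate 1. The part of these shifts in the results below was not tested. In bulk tissue, fewer cells of a type and less RNA per cell cannot be told apart.

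Of the 36 genes, 24 passed the filter on low counts and were tested. Fgf18 and Spred2 rose in dd, and no gene was called lower. The 2 calls are 8.33% of the tested genes, against 8.39% of all 18530 genes tested (4.52% called higher and 3.86% called lower), so the share of calls was near that of the background. By unadjusted p under 0.05, 8 of the 24 were higher and 1 lower (37.5% together), against 29.3% of all genes (14.9% higher and 14.4% lower). With a single library left out, edgeR called 0 of the FGF genes in the fit lacking ff replicate 1 (0.466% of all genes called), 0 in those lacking dd replicate 1 (3.11%) or dd replicate 2 (1.81%), and 3 in the one lacking ff replicate 2 (6.16%). DESeq2, which called 16.2% of all genes (8.55% higher and 7.65% lower), called 4 of the 24 higher and 1 lower, and limma-trend on FPKM, which called 6.65% of all genes, called the same 2 genes as edgeR. The median log2 change of the 24 was 0.12, beside 0.00 over all tested genes, with 13 above and 11 below 0. The ff and dd libraries did not overlap in CPM for 14 of the 24 genes (58.3%; 9 higher and 5 lower in dd), against 62.8% of all tested genes (31.6% higher and 31.3% lower).

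**Figure D1:**
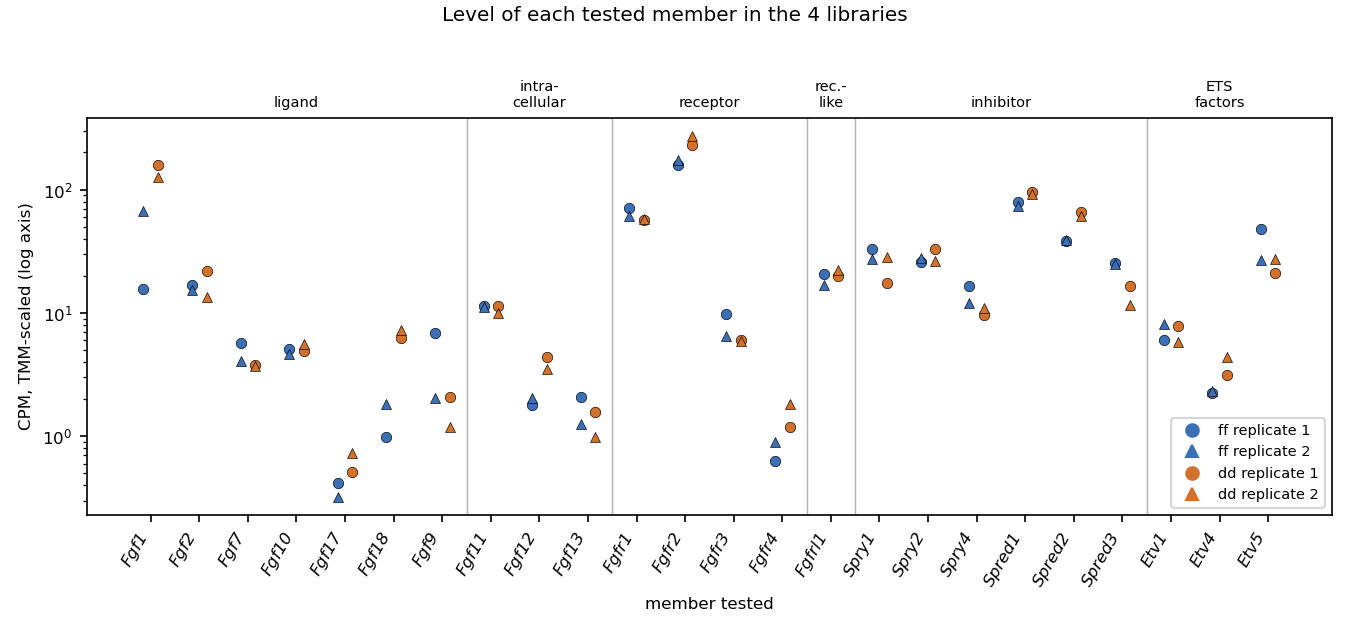
Level of the 24 tested genes in each library, in TMM-scaled CPM on a log axis, grouped by role; blue points are ff, orange points dd, circles replicate 1 and triangles replicate 2. Fgf18 and Spred2 sit higher in both dd libraries than in either ff library, and the ff points of Fgf1 and Fgf9 lie far apart.

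The sequences before the start sites of both called genes are shown because they are the loci whose transcripts rose. Both lie on mouse chromosome 11 and were taken from RefSeq on the build GRCm38.p6, the same assembly as mm10, and CpG dinucleotides are in capitals. The Fgf18 stretch covers chr11:33147401-33147650 on the minus strand. The Spred2 stretch covers chr11:19924192-19924374 on the plus strand and was cut short where an annotated transcript begins.
Fgf18: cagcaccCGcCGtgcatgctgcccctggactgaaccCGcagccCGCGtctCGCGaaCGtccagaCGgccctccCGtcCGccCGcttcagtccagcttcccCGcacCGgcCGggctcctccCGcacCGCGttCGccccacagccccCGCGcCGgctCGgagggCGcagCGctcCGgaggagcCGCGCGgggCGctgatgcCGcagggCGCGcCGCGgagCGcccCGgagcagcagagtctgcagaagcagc
Spred2: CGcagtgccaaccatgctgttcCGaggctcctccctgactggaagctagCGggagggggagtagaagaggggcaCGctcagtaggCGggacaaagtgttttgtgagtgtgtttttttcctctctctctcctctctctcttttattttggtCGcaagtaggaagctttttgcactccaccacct
The Fgf18 stretch holds 37 CpG in 250 bases, and 2.2% of the 32851 RefSeq promoter entries hold as many in a window of that length. The Spred2 stretch holds 6 CpG in 183 bases, where the median over all entries is 4 and 39.1% hold as many. Neither stretch holds the ETS core CCGGAA or the AP-1 letters TGANTCA on either strand, nor the full palindromic estrogen response element. Among all promoter entries, 12% hold the ETS core, 6.75% the AP-1 letters and 0.0639% the estrogen response element in the 250 bases before the start. A promoter entry was found for 27 of the 36 genes. The ETS core occurs in 4 of these 27 genes (Fgf5, Fgf12, Fgfr4 and Fgfrl1), and the AP-1 letters in 2 (Fgf12 and Fgf13). Some genes have several entries. Counted by entry, as in the shares over all promoters, the ETS core occurs in 4 of 36 and the AP-1 letters in 2 of 36.

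Among the ligands, Fgf18, a member of the FGF8 subfamily known for its roles in bone and lung, rose. It had 33 and 57 counts in ff, against 147 and 219 in dd, or 0.991 and 1.83 CPM against 6.22 and 7.23 CPM. The lower dd library was thus well above the higher ff library. The increase was 4.77-fold (95% interval 2.50 to 9.09; log2 2.25, SE 0.36, edgeR adjusted p = 0.0344). The gene lies on chromosome 11 (33116970 to 33147400, minus strand), and no annotated gene overlaps it on the opposite strand. The call was lost without ff replicate 1 (log2 1.88, adjusted p = 0.0848), dd replicate 1 (2.37, 0.0673) and likewise dd replicate 2 (2.14, 0.0906), and was kept without ff replicate 2 (2.75, 0.0298). In the authors' deposited table its fold was 4.77, at an unadjusted p of 8.6e-06.

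Fgf1, an acidic FGF that binds all FGF receptors and leaves cells without a signal peptide, showed the widest gap between the ff libraries among the tested genes. It had 517 and 2070 counts in ff, against 3718 and 3815 in dd, or 15.5 and 66.5 CPM against 157.4 and 125.9 CPM. Both dd libraries were above both ff libraries, but the ff libraries differed 4.28-fold from each other. The log2 change of 1.79 (95% interval 0.06 to 3.51) missed the threshold (edgeR adjusted p = 0.16). It was 3.18 without ff replicate 2, when it passed (adjusted p = 0.0121), and 1.09 without ff replicate 1 (adjusted p = 0.0841). In the authors' deposited table Fgf1 had a fold of 3.46, at an unadjusted p of 0.00016. Fgf1 overlaps Arhgap26 on the opposite strand, which had 304 and 242 counts in ff, against 148 and 209 in dd. In CPM Arhgap26 was at 9.13 and 7.77 in ff and 6.26 and 6.90 in dd, and was not called (edgeR adjusted p = 0.274).

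Fgf9, a ligand made in many epithelia and mesothelia, also differed between the ff libraries, in the opposite sense. It had 229 and 63 counts in ff, against 49 and 36 in dd, or 6.88 and 2.02 CPM against 2.07 and 1.19 CPM. The groups overlapped, since ff replicate 2 lay just below dd replicate 1. Its log2 change was −1.46 (95% interval −3.18 to 0.26, adjusted p = 0.224), and −0.32 without ff replicate 1. Its fold in the authors' deposited table was 0.364, at an unadjusted p of 0.00379.

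Fgf7 and Fgf10, the mesenchymal ligands of the epithelial splice form of Fgfr2, did not pass. Fgf7 was at 5.71 and 4.11 CPM in ff and 3.81 and 3.73 CPM in dd, a log2 change of −0.38 (95% interval −1.04 to 0.28). Fgf10 was at 5.14 and 4.66 CPM in ff and 4.91 and 5.61 CPM in dd, a log2 change of 0.10 (95% interval −0.43 to 0.64). For Fgf10 the ff and dd libraries interleaved, and for Fgf7 both dd libraries were slightly below both ff libraries. Fgf2, basic FGF, was at 16.8 and 15.4 CPM in ff and 21.9 and 13.4 CPM in dd, so that the ff libraries fell between the dd libraries. Fgf2 shares its locus with Nudt6 on the opposite strand, which had 51 and 50 counts in ff, against 50 and 54 in dd. In CPM Nudt6 was at 1.53 and 1.61 in ff and slightly higher, at 2.12 and 1.78, in dd, and was not called (edgeR adjusted p = 0.475). Fgf17, the close relative of Fgf18, was low at 14 and 10 counts in ff, against 12 and 22 in dd. In CPM Fgf17 was at 0.421 and 0.321 in ff and 0.508 and 0.726 in dd, without overlap. It did not pass (log2 0.74, edgeR adjusted p = 0.277).

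The other 11 secreted ligands did not pass the filter on low counts. Fgf4 and Fgf8, best known from the embryo, and Fgf6, known from muscle, had 0 counts in all 4 libraries, where 3 counts would be 0.0901 to 0.127 CPM. Fgf3, Fgf5, Fgf15, Fgf20, Fgf22 and Fgf23 had at most 4 counts in any library. Fgf16, of the FGF9 subfamily, had 6 and 2 counts in ff, against 8 and 14 in dd. Its fold in the authors' deposited table was 3.2, at an unadjusted p of 0.0332. The liver hormone gene Fgf21 had 0 counts in both ff libraries and 3 and 1 in dd, which is too few for a fold.

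Per transcript length, Fgf1 was first of the 18 secreted ligands in every library, at 2.84 and 12.1 FPKM in ff and 28.6 and 23.1 FPKM in dd. Summed over the 18 ligands, the level was 11.0 and 18.9 FPKM in ff and 40.4 and 34.7 FPKM in dd. Fgf1 made up 25.9% and 64.1% of that sum in ff, and 70.8% and 66.8% in dd, so ff replicate 1 stood apart and the other 3 libraries lay between 64.1% and 70.8%. In ff replicate 1 the sum was shared with Fgf2 (22.6%), Fgf7 (16.0%) and Fgf9 (13.5%). Fgf18 took 7.62% and 8.12% in ff and 12.9% and 17.6% in dd, with a rank of 6 and 3 among the ligands in ff and of 2 in each dd library. Fgf2 had rank 2 in both ff libraries, while Fgf9 had rank 4 in ff replicate 1 and 6 in ff replicate 2. These shares are descriptions, since an exact permutation test of 2 against 2 libraries cannot give a two-sided p below 0.333.

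**Figure D2:**
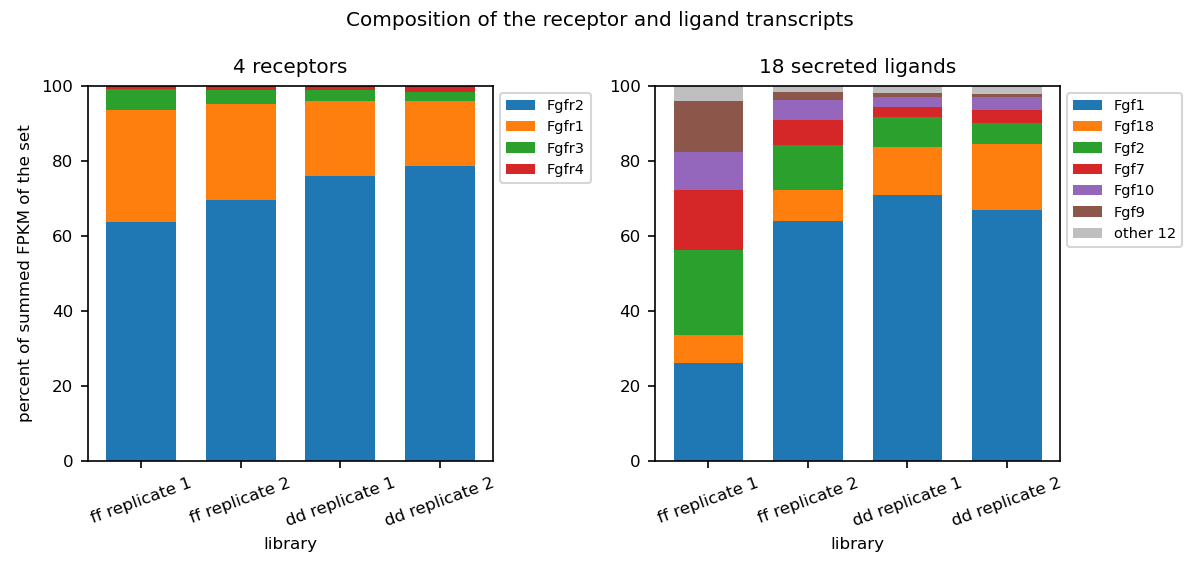
Percent of the summed FPKM that each gene took in each of the 4 libraries, for the 4 receptors (left) and the 18 secreted ligands (right, with the 12 lowest joined). Fgfr2 took 63.7% and 69.5% in ff and 76.1% and 78.5% in dd, and the small share of Fgf1 in ff replicate 1 is seen on the right.

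The intracellular FGFs (Fgf11 to Fgf14) are not secreted and are known as partners of voltage-gated sodium channels. None was called by edgeR (8.39% of all genes), and 1 of the 3 tested had an unadjusted p under 0.05 (29.3% of all genes). DESeq2 called Fgf12 higher, just under the threshold (adjusted p = 0.0498; 16.2% of all genes called), and limma-trend called none (6.65%). Fgf12 had 60 and 64 counts in ff, against 103 and 106 in dd, or 1.80 and 2.05 CPM against 4.36 and 3.50 CPM. Both dd libraries were above both ff libraries, with a log2 change of 1.02 (SE 0.25, edgeR adjusted p = 0.0775). Fgf11 was the most abundant of the 4 per length, at 3.73 and 3.63 FPKM in ff and 3.73 and 3.30 FPKM in dd, and its log2 change of −0.07 had a 95% interval of −0.47 to 0.34. Fgf13 was at 2.07 and 1.25 CPM in ff and 1.57 and 0.99 CPM in dd, with overlapping groups. Fgf14 was not tested, with 4 counts in 3 libraries and 17 in dd replicate 2.

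Of the receptors, Fgfr2 was the most abundant per length, at 15.3 and 16.7 FPKM in ff and 21.9 and 26.4 FPKM in dd. It had 5257 and 5397 counts in ff, against 5390 and 8233 in dd, or 157.9 and 173.3 CPM against 228.1 and 271.8 CPM. The groups did not overlap, and the log2 change of 0.59 (95% interval 0.27 to 0.92) fell just short of the threshold in edgeR (adjusted p = 0.0569), while DESeq2 called it (adjusted p = 0.00221). Counts per gene cannot separate the epithelial and mesenchymal splice forms of Fgfr2, and the epithelial marker list had a median log2 change of 0.97. Fgfr2 is on chromosome 7 (130162451 to 130266808, minus strand).

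Fgfr1, the receptor typical of mesenchyme, was at 70.6 and 61.3 CPM in ff and 57.0 and 57.8 CPM in dd. Its log2 change was −0.20 (95% interval −0.46 to 0.06, adjusted p = 0.262), in libraries where stromal markers had a median of −0.60. On the FPKM scale Fgfr2 exceeded Fgfr1 by a ratio of 2.14 and 2.70 in ff and 3.83 and 4.50 in dd. All 4 ratios were above 1 and the groups did not overlap. Fgfr3 was at 9.79 and 6.45 CPM in ff and 6.05 and 5.94 CPM in dd (log2 −0.44, adjusted p = 0.32). Fgfr4, the receptor with a known role in liver, was rare at 21 and 28 counts in ff, against 28 and 55 in dd. In CPM Fgfr4 was at 0.631 and 0.899 in ff and 1.19 and 1.82 in dd, without overlap. Its log2 change was 0.98 (SE 0.37, edgeR adjusted p = 0.165). Fgfrl1, which binds FGFs but lacks a kinase domain, was at 20.6 and 16.9 CPM in ff and 19.8 and 22.1 CPM in dd, with overlapping groups. By edgeR 0 of these 5 genes were called (8.39% of all genes), and 2 had an unadjusted p under 0.05 (29.3% of all genes). Fgfr2 was the only one that DESeq2 called (16.2% of all genes), and limma-trend called none (6.65%). Counts among 5 genes are too small to set apart from these shares.

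**Figure D3:**
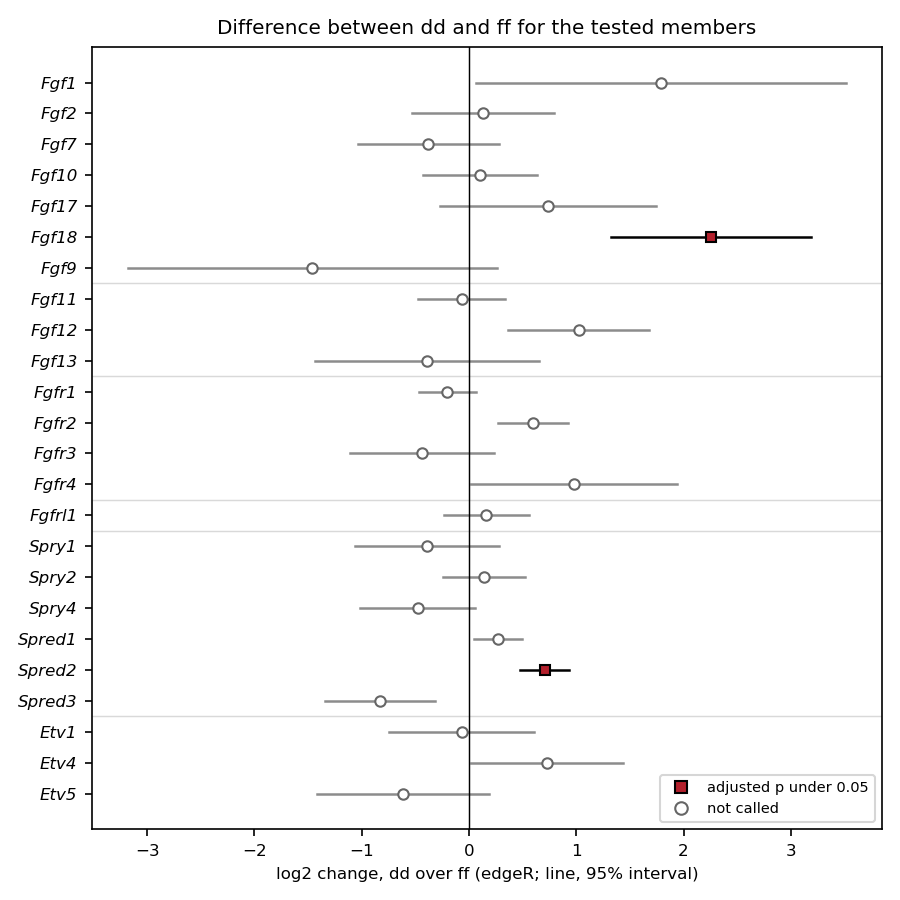
Log2 change of dd over ff for the 24 tested genes from edgeR, with 95% intervals as lines; filled squares passed an adjusted p of 0.05 and open circles did not. Fgf18 at 2.25 and Spred2 at 0.71 are filled, and the widest intervals are those of Fgf1 and Fgf9.

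Among the inhibitors, Spred2, which binds RAS pathway proteins and blocks activation of RAF, rose. It had 1267 and 1226 counts in ff, against 1548 and 1845 in dd, or 38.1 and 39.4 CPM against 65.5 and 60.9 CPM. The libraries of each group lay close together and the groups were well apart. The increase was 1.63-fold (95% interval 1.39 to 1.91; log2 0.71, SE 0.09, edgeR adjusted p = 0.0251). The gene is on chromosome 11 (19924442 to 20024026, plus strand), with no annotated gene on the opposite strand. The call was kept without ff replicate 2 (adjusted p = 0.0496) and lost when ff replicate 1 (0.0931), dd replicate 1 (0.0678) and dd replicate 2 (0.0669) were left out in turn, while the log2 change stayed between 0.66 and 0.76. In the authors' deposited table its fold is 1.63 and its unadjusted p 0.127.

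Spred3 pointed the other way without passing. It was at 25.6 and 24.8 CPM in ff and 16.7 and 11.7 CPM in dd, and the groups did not overlap. The log2 change was −0.83 (95% interval −1.34 to −0.32, edgeR adjusted p = 0.0723), and DESeq2 called it lower (adjusted p = 0.00752), as did edgeR with library size as the only scaling (adjusted p = 0.0491). Spred1 was at 79.9 and 74.2 CPM in ff and 95.1 and 91.3 CPM in dd, and its log2 change of 0.27 (SE 0.09) missed the threshold (adjusted p = 0.12). The FPKM ratio of Spred2 to Spred3 was 2.004 and 2.14 in ff and 5.29 and 7.02 in dd.

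No Sprouty gene passed. Spry2 was at 25.9 and 28.1 CPM in ff and 33.1 and 26.4 CPM in dd (log2 0.14, 95% interval −0.24 to 0.52). Spry1 was at 33.2 and 27.4 CPM in ff and 17.5 and 28.6 CPM in dd, so that dd replicate 1 alone was low (log2 −0.39, adjusted p = 0.373). Spry4 was at 16.4 and 12.1 CPM in ff and 9.57 and 10.9 CPM in dd, without overlap (log2 −0.48, 95% interval −1.01 to 0.06, adjusted p = 0.206). None of the 3 was called by edgeR, DESeq2 or limma-trend (8.39%, 16.2% and 6.65% of all genes). None had an unadjusted p under 0.05 in edgeR (29.3% of all genes). Summed over the 6 Sprouty and Spred genes, the level was 51.4 and 48.7 FPKM in ff and 54.4 and 53.5 FPKM in dd.

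The ETS factor genes did not pass either. Etv4 was at 2.22 and 2.34 CPM in ff and 3.13 and 4.42 CPM in dd, both dd libraries being higher (log2 0.73, SE 0.27, adjusted p = 0.163). Etv5, the most abundant of the 3 per length, had 1594 and 829 counts in ff, against 500 and 831 in dd, or 47.9 and 26.6 CPM against 21.2 and 27.4 CPM. Only ff replicate 1 stood out, and the log2 change of −0.62 (adjusted p = 0.262) was −0.13 without it. Etv1 was at 6.07 and 8.19 CPM in ff and 7.83 and 5.78 CPM in dd, with interleaved libraries. By edgeR 0 of the 3 were called (8.39% of all genes), and Etv4 alone had an unadjusted p under 0.05 (29.3% of all genes). Neither DESeq2 (16.2% of all genes) nor limma-trend (6.65%) called any.

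**Figure D4:**
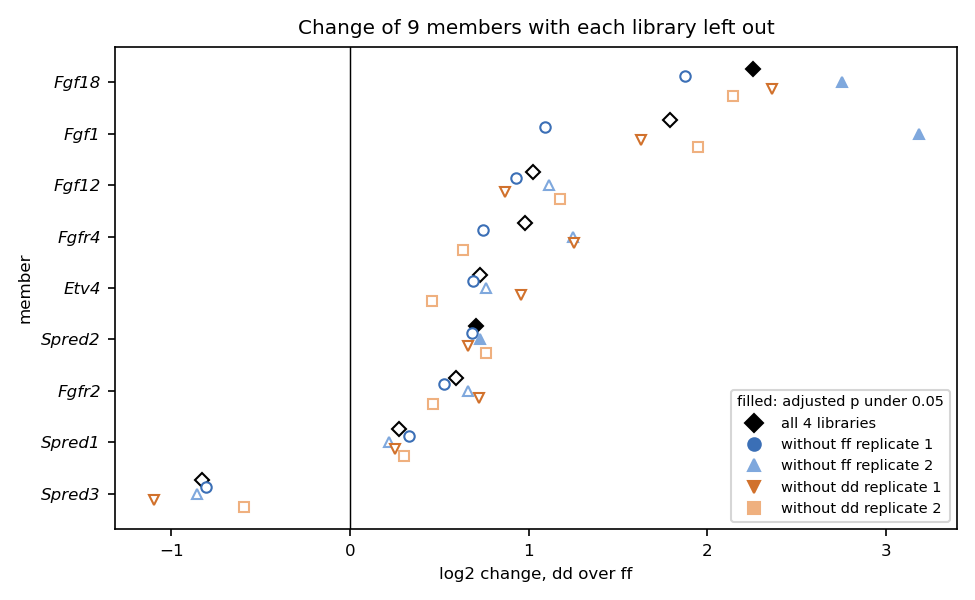
Log2 change of dd over ff for the 9 genes with an unadjusted p under 0.05, with all 4 libraries (diamonds) and with each library left out; filled symbols passed an adjusted p of 0.05. Fgf1 moves between 1.09 and 3.18. That no gene of the 9 crosses 0 was fixed beforehand, since the ff and dd libraries of each did not overlap in CPM.

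In the rest of the pathway, a list of 49 genes for FGF co-receptors, adaptors, the RAS and ERK cascade and heparan sulfate, 47 were tested. Of these 3 were called lower and 0 higher by edgeR (6.38%, against 8.39% of all genes), with 10 higher and 9 lower at an unadjusted p under 0.05 (40.4%, against 29.3% of all genes), and DESeq2 called 5 higher and 6 lower of the 47, beside 16.2% of all genes. The median log2 change was −0.06. All 3 called genes act outside the cell or at its surface, as do others of the list that were not called. Among the uncalled, Sdc4 was higher (log2 0.64, edgeR adjusted p = 0.0734) and Sulf2 lower (log2 −0.77, edgeR adjusted p = 0.0536). No shared location is thus read from the calls. Sulf1, a sulfatase that trims heparan sulfate and lowers FGF binding, had 3263 and 2806 counts in ff, against 829 and 1094 in dd. It fell by 1.40 on the log2 scale (SE 0.09, adjusted p = 0.0147), and the call was kept whichever library was left out (adjusted p up to 0.0445).

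Fgfbp3, a carrier that frees FGFs from the matrix, had 308 and 274 counts in ff, against 79 and 77 in dd and fell by 1.62 (SE 0.23, adjusted p = 0.0284). Gpc3, a heparan sulfate proteoglycan, had 1568 and 1469 counts in ff, against 598 and 851 in dd and fell by 0.82 (SE 0.10, adjusted p = 0.0247). Both calls depended on single libraries: leaving out ff replicate 1, ff replicate 2 and dd replicate 2 in turn gave Fgfbp3 an adjusted p of 0.0985, 0.0546 and 0.0725, and leaving out ff replicate 1, dd replicate 1 and dd replicate 2 gave Gpc3 one of 0.0843, 0.065 and 0.0608. For Gpc6, another proteoglycan of this kind, the log2 change of −0.91 fell just short (adjusted p = 0.0513). The stromal marker sum was lower in the same libraries, at 17346 and 15339 CPM in ff and 11868 and 8486 CPM in dd.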

How the data were processed

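The authors' deposited table gives, for each of 54152 gene symbols, raw counts per library, rescaled counts (a signal column, not tested here), FPKM per the file headers, and the authors' fold (a ratio) and unadjusted p-value; which test gave it is unstated in the labels and headers. Per the submitters' processing notes STAR, edgeR and the mm10 build were used, without versions. The read counter, annotation and strandedness are unstated there. The RefSeq spans of 10 of the 24 tested FGF genes overlap a GENCODE gene on the opposite strand.

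Counts were tested with edgeR 4.0.16 (R 4.3.3): TMM, filterByExpr, quasi-likelihood test, no block, and Benjamini-Hochberg adjustment over 18530 genes, calling genes at an adjusted p under 0.05. Intervals come from this fit. The fit was also run on counts simulated with the same spread for every gene. That run does not cover genes with uneven replicates such as Fgf1. The genes and lists were chosen with earlier results of these data known. Counts, CPM and full statistics were given for the called FGF genes. For the other tested genes a part of these values was given, which varied from gene to gene. Of the pathway list, the called genes and Gpc6, with the next smallest p, were named. Sdc4 and Sulf2 were added as examples of uncalled genes, and opposite-strand partners were also added, after seeing the values. Replicates differed by more than sampling noise (chi-square per degree of freedom 32.0 in ff and 32.6 in dd). Gene positions are RefSeq's on GRCm38.p6, with overlaps from GENCODE. Alternatives tried: a block for the replicate number, leaving out each library, other scalings and filters, DESeq2 1.42.0, limma-trend (limma 3.58.1) on log2(FPKM + 0.5) and a threshold of 0.01.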

Additional observations from a re-analysis of the deposited data

How the results depend on the processing

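With 2 libraries a group, counts of calls moved with 1 library. The number of FGF genes called higher (2) ranged from 0 to 3 with each library left out and the number called lower stayed at 0, where the share of all genes called was 0.466% (without ff replicate 1), 6.16% (ff replicate 2 left out), 3.11% (dd replicate 1) and 1.81% (dd replicate 2). Without a filter, where 9.29% of all genes were called, 4 FGF genes were called higher and 1 lower, and with DESeq2 (16.2% of all genes) also 4 and 1. With library size alone (9.56% of all genes) 1 was called lower, and at an adjusted p under 0.01 none (0) was called higher. Pathway genes called lower (3) ranged from 1 to 3 with each library left out, and those called higher stayed at 0. With upper quartile factors (8.52% of all genes called) or library size alone (9.56%) 5 were called lower. Without a filter (9.29% of all genes) 2 were called higher and 5 lower, with DESeq2 (16.2% of all genes) 5 higher and 6 lower, and at 0.01 none (0) lower.

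The fit with the replicate block, which called 8.26% of all genes, called 3 FGF genes higher (Fgfr2 besides Fgf18 and Spred2) and 0 lower. Of the pathway genes it called 1 higher and 4 lower. The replicate numbers did not pair the libraries, with a correlation of 0.01 over 18530 genes between the same-numbered deviations. With each library left out, the log2 changes of 5 genes near 0 crossed it: Etv1 ranged from −0.295 to 0.159 (above 0 without ff replicate 2 and at 0.139 without dd replicate 2), Fgf11 from −0.159 to 0.0286 (dd replicate 2), Fgf13 from −0.742 to 0.0197 (ff replicate 1), Fgf2 from −0.256 (dd replicate 1) to 0.442 and Spry2 from −0.0219 (dd replicate 1) to 0.297. None of the 24 genes turned under DESeq2 size factors, upper quartile factors or library size alone. Fgf1 ranked first among ligands in each library alone. Fgf14, Fgf16 and other ligands of few counts are limited by depth.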
